A study of Mus musculus with 8 samples.

Results

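Metallothioneins 1 and 2 (Mt1, Mt2) and 5 zinc transporters, Slc30a1, Slc30a10, Slc39a4, Slc39a8 and Slc39a14, were taken by gene symbol from the deposited liver expression values. All 7 were found among 22481 gene symbols. Liver samples of male mice, 4 labelled db/db and 4 labelled lean, were compared in a study of fatty liver disease. In db/db animals the leptin receptor gene is mutated in every cell, which makes them obese and diabetic. The lean samples are labelled C57BL/6, the other group only db/db, and the labels name no age, treatment or fasting state. Libraries were made from total RNA of whole liver after ribosomal RNA removal, so fewer cells of a type and less RNA per cell cannot be told apart.

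Metallothioneins are small proteins rich in cysteine that bind zinc and copper in the cell. Their genes are switched on by the zinc-sensing transcription factor MTF1, which binds short metal response elements in promoters, and also by glucocorticoids, interleukin 6 and oxidative stress. Transporters of the Slc30 family (ZnT) move zinc out of the cytosol, and those of the Slc39 family (ZIP) move it in. Slc30a1 exports zinc across the plasma membrane and is itself a target of MTF1. Slc30a10 is best known as a manganese exporter. Slc39a14 takes up zinc, iron and manganese into hepatocytes, Slc39a8 carries zinc and manganese, and Slc39a4 is the main zinc importer of the intestine.

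The coding sequences of Mt1 and Mt2 are shown because the measured reads have to tell these neighbouring genes apart. Capitals mark the bases that differ. The letters are from GENCODE M21 (GRCm38, chromosome 8, plus strand).
Mt1: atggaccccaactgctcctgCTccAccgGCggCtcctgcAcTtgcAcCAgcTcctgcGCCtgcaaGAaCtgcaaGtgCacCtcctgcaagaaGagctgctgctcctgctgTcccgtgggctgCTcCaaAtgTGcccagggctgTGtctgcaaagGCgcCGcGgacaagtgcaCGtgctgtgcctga
Mt2: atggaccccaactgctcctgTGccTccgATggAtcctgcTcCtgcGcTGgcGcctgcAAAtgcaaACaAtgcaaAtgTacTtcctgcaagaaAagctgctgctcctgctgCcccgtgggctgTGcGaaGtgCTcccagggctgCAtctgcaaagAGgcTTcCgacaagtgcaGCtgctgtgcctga
Each holds 186 bases with the stop codon, and 148 of them (79.6%) are the same in both. The longest run shared without a difference is 20 bases. Each has 61 codons before the stop, of which 20 are cysteine codons, and all 20 lie at the same positions in both genes. How reads matching both genes were assigned was not stated in the labels.

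The windows upstream of 4 genes are shown because metal response elements link zinc to metallothionein genes. Capitals mark letters that match the core of the element, which describes the sequence and does not show binding, searched as TGCACNC and TGCGCNC on both strands, so that a match on the opposite strand reads as GNGTGCA or GNGCGCA. Each window holds 250 bases that end just before the start annotated by RefSeq (GRCm38.p6, all on the plus strand).
Mt1 (chr8:94178839-94179088): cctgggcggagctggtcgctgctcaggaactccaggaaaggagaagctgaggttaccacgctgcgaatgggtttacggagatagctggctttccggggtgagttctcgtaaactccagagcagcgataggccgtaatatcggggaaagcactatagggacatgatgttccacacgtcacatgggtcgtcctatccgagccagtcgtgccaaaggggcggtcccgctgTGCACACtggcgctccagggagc
Mt2 (chr8:94172368-94172617): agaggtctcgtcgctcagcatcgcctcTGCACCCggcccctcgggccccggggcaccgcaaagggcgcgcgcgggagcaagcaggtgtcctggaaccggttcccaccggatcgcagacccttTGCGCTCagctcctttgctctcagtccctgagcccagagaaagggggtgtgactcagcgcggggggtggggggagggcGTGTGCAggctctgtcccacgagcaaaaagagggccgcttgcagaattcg
Slc30a1 (chr1:191906531-191906780): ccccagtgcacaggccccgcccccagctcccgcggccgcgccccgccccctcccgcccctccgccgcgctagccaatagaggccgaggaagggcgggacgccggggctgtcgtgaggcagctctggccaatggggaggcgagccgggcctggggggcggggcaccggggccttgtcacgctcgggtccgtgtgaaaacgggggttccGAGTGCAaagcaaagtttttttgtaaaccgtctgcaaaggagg
Slc30a10 (chr1:185454598-185454847): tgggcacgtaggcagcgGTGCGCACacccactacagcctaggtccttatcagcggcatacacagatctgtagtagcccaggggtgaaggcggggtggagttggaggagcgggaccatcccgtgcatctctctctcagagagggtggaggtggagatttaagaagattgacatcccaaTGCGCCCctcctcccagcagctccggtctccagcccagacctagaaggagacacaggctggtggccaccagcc
Mt2 and Slc30a10 each had 3 matches, of which a pair overlapped in Slc30a10, while Mt1 and Slc30a1 had 1 each. At least 1 match was present in 21.4% and at least 3 in 1.26% of all 32851 upstream windows of the same length. Further matches reaching past the annotated start numbered 2 in Mt1 and 1 each in Mt2 and Slc30a1. GENCODE also lists later starts for Mt1, at 94179211 and 94179241, and for Mt2, at 94172664 and 94172860. Windows before these starts were not searched, so the numbers of matches hold only for the RefSeq starts. RefSeq windows were found for 5 of the 7 genes. Of the 2 windows of Slc39a8, 1 had a single match.

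Both metallothioneins and Slc30a10 were higher in db/db liver and Slc39a4 was lower. Slc30a1, Slc39a8 and Slc39a14 did not pass the test. By limma on log2(FPKM + 1), with a Benjamini-Hochberg adjusted p below 0.05 as the call, 3 of 7 were called higher and 1 lower. FPKM is fragments scaled to transcript length and library depth, which allows levels of different genes to be compared. Of all 10943 genes tested, 26.4% were called, 15.5% higher and 10.9% lower in db/db. The groups did not overlap in FPKM for 2 of the 7 in the higher and 1 in the lower direction, against 28.4% of all genes tested, 16.9% higher and 11.6% lower. The median log2 fold change, always db/db minus lean, was 0.21 over the 7 genes and 0.04 over all genes tested. The median size without sign was 0.95 against 0.25.

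**Figure D1:**
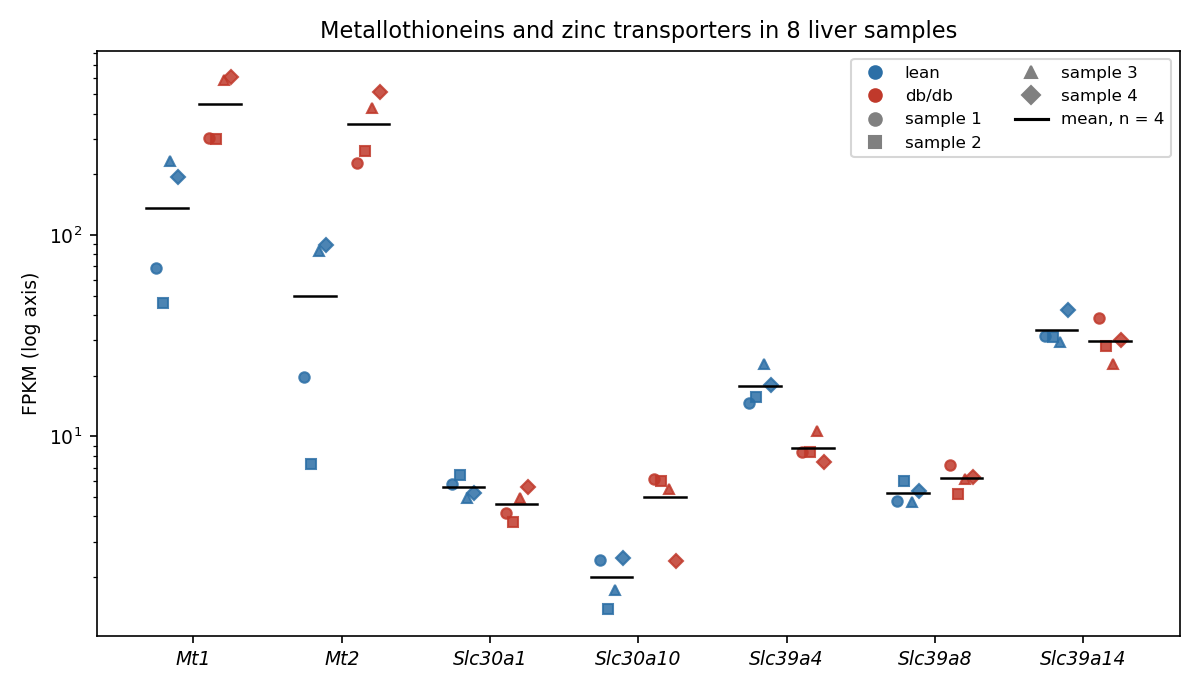
FPKM (log axis) of Mt1, Mt2 and 5 zinc transporters in each sample, lean in blue and db/db in red, with the sample number as the marker shape and the mean of 4 as a black line. Every db/db sample lies above every lean sample for Mt1 and Mt2 and below for Slc39a4, while the groups overlap for the other 4 genes.

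Mt1 (ENSMUSG00000031765, chr8:94179088-94180325, plus strand, mm10) rose 3.31-fold in mean FPKM. Its level in db/db samples 1 to 4 was 304, 299, 587 and 606 FPKM. In lean samples 1 to 4 it was 68.5, 46.0, 234 and 195 FPKM. The lowest db/db sample lay above the highest lean sample. Means were 449 ± 170 FPKM in db/db and 136 ± 92.6 in lean (SD, n = 4 each). The log2 fold change was 1.94 (SE 0.48, 95% interval 0.87 to 3.01, limma adjusted p = 0.0136). Behind these levels stood 2013 to 4195 estimated fragments (db/db) and 268 to 1491 (lean).

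Mt2 (ENSMUSG00000031762, chr8:94170751-94173567, plus strand, mm10), the neighbouring gene, rose 7.14-fold in mean FPKM. Its level in db/db samples 1 to 4 was 227, 260, 426 and 512 FPKM. The lean samples had 19.7, 7.25, 82.9 and 89.6 FPKM in the same order. All db/db samples again lay above all lean samples, and lean 2 had the lowest value. Means were 356 ± 136 and 49.9 ± 42.4 FPKM (SD, n = 4 each; log2 fold change 3.32, SE 0.67, 95% interval 1.84 to 4.801, limma adjusted p = 0.00462). Lean 2 rested on 44 estimated fragments of Mt2 and the other lean samples on 149 to 576. Without lean 2 the log2 fold change was 2.64 (limma adjusted p = 0.00536). Ordered by log2 fold change on FPKM + 1 from the largest rise, Mt2 stood at place 23 and Mt1 at place 101 of the 10943 genes tested. The added 1 understates the rise of low genes, so these places depend on it.

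Samples 3 and 4 had more of both metallothioneins than samples 1 and 2 in each group, although the labels do not say that the numbers pair samples. The spread among lean samples was wide. The highest lean sample had 5.09 times the Mt1 level and 12.4 times the Mt2 level of the lowest. Among db/db samples these factors were 2.02 and 2.26. The coefficient of variation was 68.2% for Mt1 and 85.04% for Mt2 in lean, against 37.9% and 38.1% in db/db. Within both groups, the 5 transporters had coefficients of 11.1 to 35.4%.

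The balance of Mt1 to Mt2 also differed between the groups. The ratio of Mt1 to Mt2 FPKM was 1.34, 1.15, 1.38 and 1.18 in db/db samples 1 to 4. It was 3.47, 6.35, 2.83 and 2.17 in lean samples 1 to 4. All lean samples had a higher ratio than all db/db samples. The log2 ratio was lower in db/db by a difference of -1.44 (exact 2-sided permutation test, p = 0.0286, the smallest that 4 against 4 allows). This measure was chosen after the values were seen. In estimated fragments the difference was also -1.44, and without lean 2, the sample with few Mt2 fragments, it was -1.14 in FPKM. The metallothionein total, Mt1 plus Mt2, was 805 ± 304 FPKM in db/db and 186 ± 134 in lean (SD, n = 4 each), a ratio of 4.34.

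**Figure D2:**
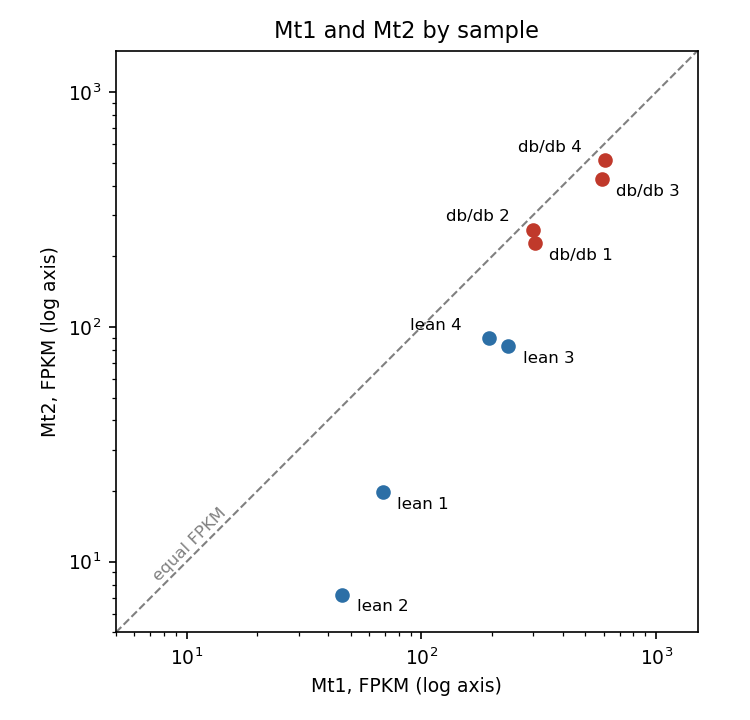
Mt1 against Mt2 in FPKM for each of 8 samples, both axes logarithmic, with the dashed line at equal FPKM. The db/db samples (red) lie close to the line at ratios of 1.15 to 1.38, and the lean samples (blue) lie further below it at ratios of 2.17 to 6.35.

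Of the genes beside this pair, those tested were not called. Mt3 and Mt4, metallothioneins known from brain and from stratified epithelium, lie upstream of Mt2 on chromosome 8. They were listed at 0 in all 8 samples and so not tested. The liver gene Alb was listed at 0 too, so these zeros need care. Within 100 kb, the only other genes in the deposited values were Bbs2, of the cilium, and Nup93, of the nuclear pore. Bbs2 stood at 2.46 ± 0.792 (db/db) and 2.08 ± 0.499 FPKM (lean; SD, n = 4 each; log2 fold change 0.15, limma adjusted p = 0.577). Nup93 had 2.18 ± 0.508 and 1.72 ± 0.382 FPKM (log2 fold change 0.22, limma adjusted p = 0.312).

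Among the exporters, Slc30a10 (ENSMUSG00000026614, chr1:185447115-185468773, plus strand) rose 2.501-fold in mean FPKM. Its level in db/db samples 1 to 4 was 6.17, 6.03, 5.44 and 2.39 FPKM. In lean samples 1 to 4 it was 2.43, 1.39, 1.72 and 2.48 FPKM. Db/db 4 lay among the lean samples, and the other db/db samples lay above all of them. Means were 5.01 ± 1.77 and 2.003 ± 0.537 FPKM (SD, n = 4 each; log2 fold change 0.96, SE 0.24, 95% interval 0.43 to 1.49, limma adjusted p = 0.0139). The exact 2-sided permutation test for this gene gave p = 0.0857. Without db/db 4 the log2 fold change was 1.21 (limma adjusted p = 0.000972). The estimated fragments numbered 244 to 717 (db/db) and 120 to 257 (lean).

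Slc30a1 (ENSMUSG00000037434, chr1:191890232-191913247, plus strand) was not called. Its level was 4.14, 3.74, 4.95 and 5.59 FPKM in db/db samples 1 to 4. The lean samples had 5.77, 6.39, 4.96 and 5.21 FPKM. The highest db/db sample, db/db 4, lay among the lean samples, and the other db/db samples lay below them all. Means were 4.605 ± 0.828 and 5.58 ± 0.635 FPKM (SD, n = 4 each; log2 fold change -0.24, 95% interval -0.54 to 0.06, limma adjusted p = 0.226). The interval reaches from 0.687 to 1.04 as a fold on the FPKM + 1 scale. The Slc30a1 locus overlaps 1 other gene in the deposited table, which leaves its level uncertain to that extent.

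Among the importers, Slc39a4 (ENSMUSG00000063354, chr15:76612384-76616852, minus strand) was 2.05-fold lower in db/db. Its level was 8.41, 8.34, 10.7 and 7.42 FPKM in db/db samples 1 to 4 and 14.7, 15.6, 23.0 and 18.02 FPKM in lean samples 1 to 4. All db/db samples lay below all lean samples. Means were 8.71 ± 1.38 and 17.8 ± 3.71 FPKM (SD, n = 4 each; log2 fold change -0.95, SE 0.15, 95% interval -1.29 to -0.60, limma adjusted p = 0.00142). The estimated fragments numbered 276 to 374 (db/db) and 491 to 774 (lean). Of the 10943 genes tested, Slc39a4 stood at place 297 from the largest fall in log2 fold change on FPKM + 1.

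Slc39a14 (ENSMUSG00000022094, chr14:70303468-70351425, minus strand), the most abundant of the 5 transporters, was not called. Its level was 38.6, 28.1, 22.7 and 30.1 FPKM in db/db samples 1 to 4 and 31.4, 31.3, 29.4 and 42.4 FPKM in lean samples 1 to 4. The groups overlapped, with lean 4 and db/db 1 highest. Means were 29.9 ± 6.60 and 33.6 ± 5.91 FPKM (SD, n = 4 each; log2 fold change -0.17, 95% interval -0.54 to 0.19, limma adjusted p = 0.477). Slc39a8 (ENSMUSG00000053897, chr3:135825278-135888572, plus strand), the closest relative of Slc39a14 in the family, was not called either. It had 7.23, 5.14, 6.14 and 6.31 FPKM in db/db samples 1 to 4 and 4.79, 5.98, 4.74 and 5.37 FPKM in lean samples 1 to 4. The groups overlapped, with db/db 2 below lean 2 and lean 4. Means were 6.21 ± 0.856 and 5.22 ± 0.581 FPKM (SD, n = 4 each; log2 fold change 0.21, 95% interval -0.07 to 0.49, limma adjusted p = 0.256).

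The exact permutation test gave p = 0.0286 for Mt1, Mt2 and Slc39a4, p = 0.114 for Slc30a1 and Slc39a8, and p = 0.343 for Slc39a14 (2-sided, 70 orders each). In db/db liver the order of mean FPKM was Mt1, Mt2, Slc39a14, Slc39a4, Slc39a8, Slc30a10 and Slc30a1. Mt1 and Mt2 overlapped between samples, as did Slc39a8 with Slc30a10 and Slc30a10 with Slc30a1. The other neighbours in that order lay apart. In lean liver the order was Mt1, Mt2, Slc39a14, Slc39a4, Slc30a1, Slc39a8 and Slc30a10. There Mt1 overlapped with Mt2, Mt2 with Slc39a14, and Slc30a1 with Slc39a8. Mt2 lay above Slc39a14 in every db/db sample, but in lean 1 and lean 2 it lay below it.

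The remaining zinc transporters of both families were compared in the same way. Of 11 other Slc39 genes, 9 passed the filter, 2 rose, 1 fell and 6 were not called, with a median log2 fold change of 0.00. Over all genes tested, 15.5% rose and 10.9% fell. Of 8 other Slc30 genes, 5 passed the filter and 0 were called (median log2 fold change 0.12). At an unadjusted p below 0.05, 1 of these 5 differed, Slc30a4, and voom called 1. Slc39a11 rose from 6.77 ± 0.636 FPKM in lean to 11.2 ± 1.32 in db/db (SD, n = 4 each; log2 fold change 0.64, limma adjusted p = 0.00263). Slc39a9, a transporter of the Golgi, rose from 6.62 ± 0.155 FPKM in lean to 9.37 ± 0.818 in db/db (log2 fold change 0.44, limma adjusted p = 0.00996). In both genes every db/db sample lay above every lean sample.

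Slc39a7, which releases zinc from the endoplasmic reticulum, fell from 30.4 ± 5.96 FPKM in lean to 19.9 ± 3.61 in db/db (SD, n = 4 each; log2 fold change -0.59, limma adjusted p = 0.0208). Its groups overlapped, at 16.2 to 24.8 (db/db) and 24.3 to 38.5 FPKM (lean). The call was lost without db/db 2 or without db/db 3, with an adjusted p of at most 0.0565. Slc39a11, Slc39a9 and Slc39a7 each share a locus with at least 1 other gene in the deposited values, so their levels are uncertain to that extent.

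Slc39a1, of the plasma membrane, was the most abundant of these importers in db/db, at 29.4 ± 1.75 FPKM against 27.1 ± 0.596 in lean (SD, n = 4 each; log2 fold change 0.12, limma adjusted p = 0.378). Slc30a9, a mitochondrial zinc exporter, was the most abundant of these exporters, at 16.4 ± 4.04 and 13.5 ± 1.46 FPKM (log2 fold change 0.24, limma adjusted p = 0.299). Slc39a5, a zinc importer of intestine and pancreas, did not pass the filter. It had 0.137, 1.61, 2.35 and 1.15 FPKM in db/db samples 1 to 4 and at most 0.210 in lean, on at most 71 estimated fragments. Db/db 1 lay among the lean samples for this gene, whose locus overlaps those of 2 others.

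**Figure D3:**
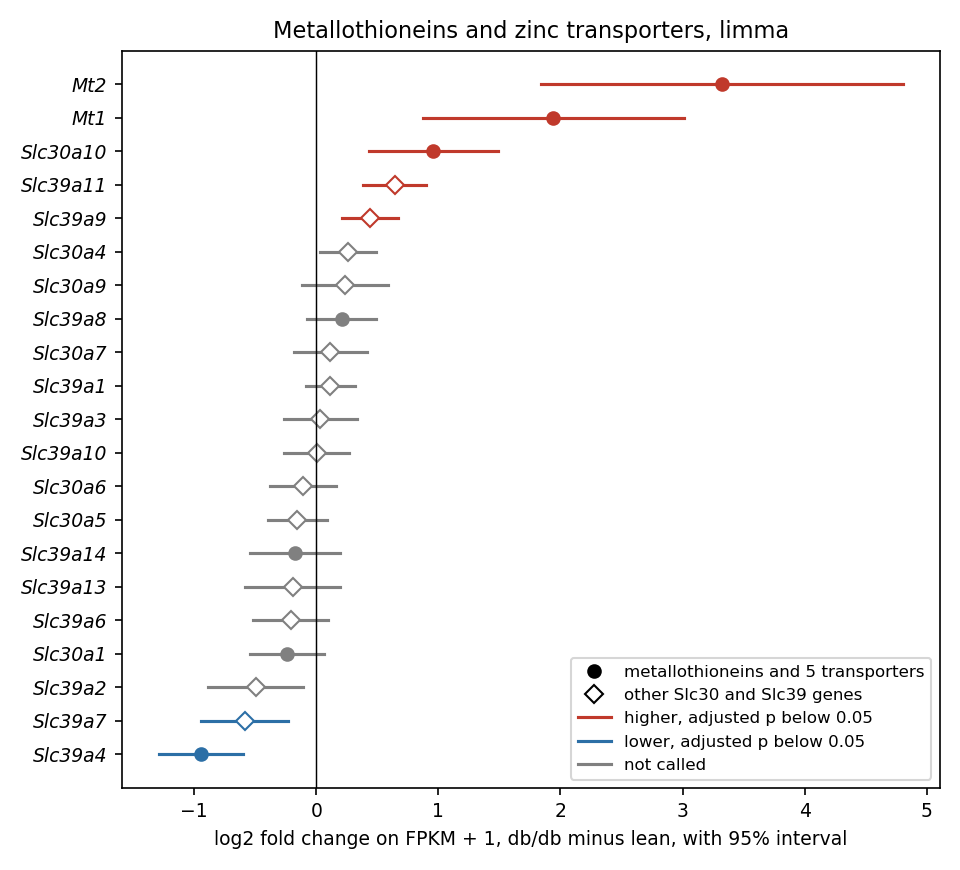
Log2 fold change on FPKM + 1 (db/db minus lean) with 95% intervals from limma for Mt1, Mt2 and 5 zinc transporters (filled circles) and the other Slc30 and Slc39 genes that passed the filter (open diamonds), coloured by call. Mt2 (3.32), Mt1 (1.94) and Slc30a10 (0.96) lie at the top and Slc39a4 (-0.95) at the bottom, with most other transporters near 0.

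Of 7 genes tested from the list of Mtf1 and genes reported as its targets, 1 rose and 0 fell, with a median log2 fold change of 0.01. Over all genes tested, 15.5% rose and 10.9% fell. The list holds Mtf1 itself and leaves out Mt1, Mt2 and Slc30a1, so its median does not cover them. Mtf1 itself had 3.53 ± 0.639 (db/db) and 3.21 ± 0.877 FPKM (lean; SD, n = 4 each; log2 fold change 0.12, limma adjusted p = 0.641), and its locus overlaps those of 3 other genes. The member that rose was Gclc, the catalytic subunit of the enzyme that starts glutathione synthesis and also a target of the oxidative stress factor NRF2. It rose from 41.7 ± 10.5 FPKM in lean to 70.6 ± 10.1 in db/db (log2 fold change 0.77, limma adjusted p = 0.00759). Sepw1, a selenoprotein and the most abundant of this list, had 135 ± 17.5 and 109 ± 29.5 FPKM (log2 fold change 0.33, limma adjusted p = 0.189).

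Of 7 NRF2 targets tested, 4 rose and 0 fell, against 15.5% and 10.9% of all genes tested. Their median log2 fold change was 0.77. Nqo1, a quinone reductase, rose 6.07-fold from 2.83 ± 0.621 FPKM in lean to 17.2 ± 4.28 in db/db (SD, n = 4 each; log2 fold change 2.23, limma adjusted p = 2.24e-05). Srxn1, which repairs oxidised peroxiredoxins, rose 2.33-fold from 8.42 ± 0.510 FPKM in lean to 19.6 ± 3.41 in db/db (log2 fold change 1.12, limma adjusted p = 0.000191). The others were Gclc and Gsta1, a glutathione transferase (log2 fold change 1.35, limma adjusted p = 0.0216), whose call was lost without db/db 4, without lean 3 or with no filter, with an adjusted p of at most 0.0619. Gclm, the partner subunit of Gclc, had 99.2 ± 6.78 and 98.6 ± 20.6 FPKM.

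Of 14 genes tested from the list of the glucocorticoid receptor and its targets, 2 rose and 0 fell, with a median log2 fold change of -0.04. The shares over all genes tested were 15.5% and 10.9%. Cdkn1a, an inhibitor of the cell cycle that p53 also switches on, rose from 0.510 ± 0.509 FPKM in lean to 11.3 ± 2.73 in db/db (SD, n = 4 each; log2 fold change 3.05, limma adjusted p = 1.04e-05). Hsd11b1, which regenerates active glucocorticoid in liver, rose from 467 ± 63.2 FPKM in lean to 665 ± 76.8 in db/db (log2 fold change 0.51, limma adjusted p = 0.0156). Tat, a tyrosine aminotransferase and a classical glucocorticoid target, stood at 761 ± 311 (db/db) and 816 ± 359 FPKM (lean; log2 fold change -0.07, limma adjusted p = 0.892). Tsc22d3, another direct target, ranged over 53.3 to 96.7 FPKM among db/db and 52.1 to 133 among lean samples. At an unadjusted p below 0.05, 4 of the 14 differed, and voom called 2, Cdkn1a and Hsd11b1. Besides these, Fkbp5 was lower (log2 fold change -0.49, limma adjusted p = 0.0716). Dusp1 was higher (log2 fold change 0.68, limma adjusted p = 0.0926). Neither was called in the main fit. Fkbp5 passed the threshold in 6 of 18 alternatives (lowest adjusted p = 0.0260) and Dusp1 in 2 (lowest adjusted p = 0.0242).

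Of 13 genes of the interleukin 6 and acute phase list, 3 rose and 0 fell, with a median log2 fold change of 0.14. The shares over all genes tested were 15.5% and 10.9%. Lcn2, an iron-scavenging lipocalin, ranged over 86.4 to 192 FPKM among db/db and 3.30 to 11.6 among lean samples. Lbp, which binds bacterial lipopolysaccharide, rose 1.56-fold from 18.5 ± 2.82 FPKM in lean to 28.9 ± 2.79 in db/db (SD, n = 4 each; log2 fold change 0.62, limma adjusted p = 0.00474). Saa2, a serum amyloid protein, had 148, 219, 593 and 61.6 FPKM in db/db samples 1 to 4, and the lean samples had 31.6 to 99.0 (limma adjusted p = 0.0354). Its call was lost in 7 of 18 alternatives, among them leaving out db/db 2 or 3 or lean 1, 2 or 3, with an adjusted p of at most 0.0925. Db/db 4, with the highest Mt1 and Mt2, was the lowest db/db sample for Saa2, while db/db 3, next highest for both, was the highest. Lean 3 and lean 4, with more Mt1 and Mt2 than lean 1 and lean 2, also had more Saa2 (50.9 and 99.0 against 31.6 and 38.9 FPKM). Hp, haptoglobin, was the most abundant of this list, at 2029 ± 460 (db/db) and 2656 ± 497 FPKM (lean; log2 fold change -0.39, limma adjusted p = 0.140), and was not called. Saa1, another serum amyloid protein, was 2.84-fold higher in mean FPKM but not called (log2 fold change 1.43, limma adjusted p = 0.0538). Voom did call it (voom adjusted p = 0.0414). At an unadjusted p below 0.05, 4 of the 13 differed, and voom called 4. Of the remaining genes not called, Fgb, Apcs and Socs3 had log2 fold changes of -0.36, -0.33 and -0.69, while Stat3, Il6ra and Il6st had 0.14, 0.27 and 0.05.

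Other metals and zinc enzymes were looked at in the same way. Of 6 genes of manganese handling, 0 were called by limma (1 at an unadjusted p below 0.05, Atp2c1, and 0 by voom), with a median log2 fold change of 0.00. Arg1, the manganese enzyme of the urea cycle, had 1284 ± 111 and 1245 ± 103 FPKM. Of 8 genes of copper handling, 0 rose and 2 fell (median log2 fold change 0.06), against 15.5% and 10.9% of all genes tested. Atox1, the copper chaperone that serves the copper pumps, fell from 194 ± 31.9 FPKM in lean to 118 ± 25.8 in db/db (SD, n = 4 each; log2 fold change -0.72, limma adjusted p = 0.0100). Ccs, the copper chaperone of superoxide dismutase, fell from 142 ± 14.9 FPKM in lean to 114 ± 6.35 in db/db (limma adjusted p = 0.0497), a call lost in 9 of 18 alternatives, among them leaving out any of the 4 db/db samples or lean 1, 3 or 4, with an adjusted p of at most 0.143. Cp, the copper oxidase ceruloplasmin and the most abundant of this list, was not called, at 510 ± 65.4 (db/db) and 457 ± 42.9 FPKM (lean; log2 fold change 0.16, limma adjusted p = 0.383).

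Of 12 zinc enzymes of liver, 5 rose and 0 fell, against 15.5% and 10.9% of all genes tested. Their median log2 fold change was 0.25. Mme, a membrane endopeptidase, rose 4.72-fold from 3.47 ± 0.569 FPKM in lean to 16.4 ± 1.904 in db/db (SD, n = 4 each; limma adjusted p = 3.58e-06). Car2, a carbonic anhydrase, rose 4.46-fold from 3.74 ± 0.716 FPKM in lean to 16.7 ± 3.84 in db/db (limma adjusted p = 4.29e-05). The others were Bhmt, Car5a and Dpys, with log2 fold changes of 1.93, 0.58 and 0.34. The call of Dpys was lost in 5 of 18 alternatives, among them leaving out db/db 3, db/db 4 or lean 1, with an adjusted p of at most 0.0715. The Car5a locus as deposited overlaps 74 other genes, which leaves its level uncertain.

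**Figure D4:**
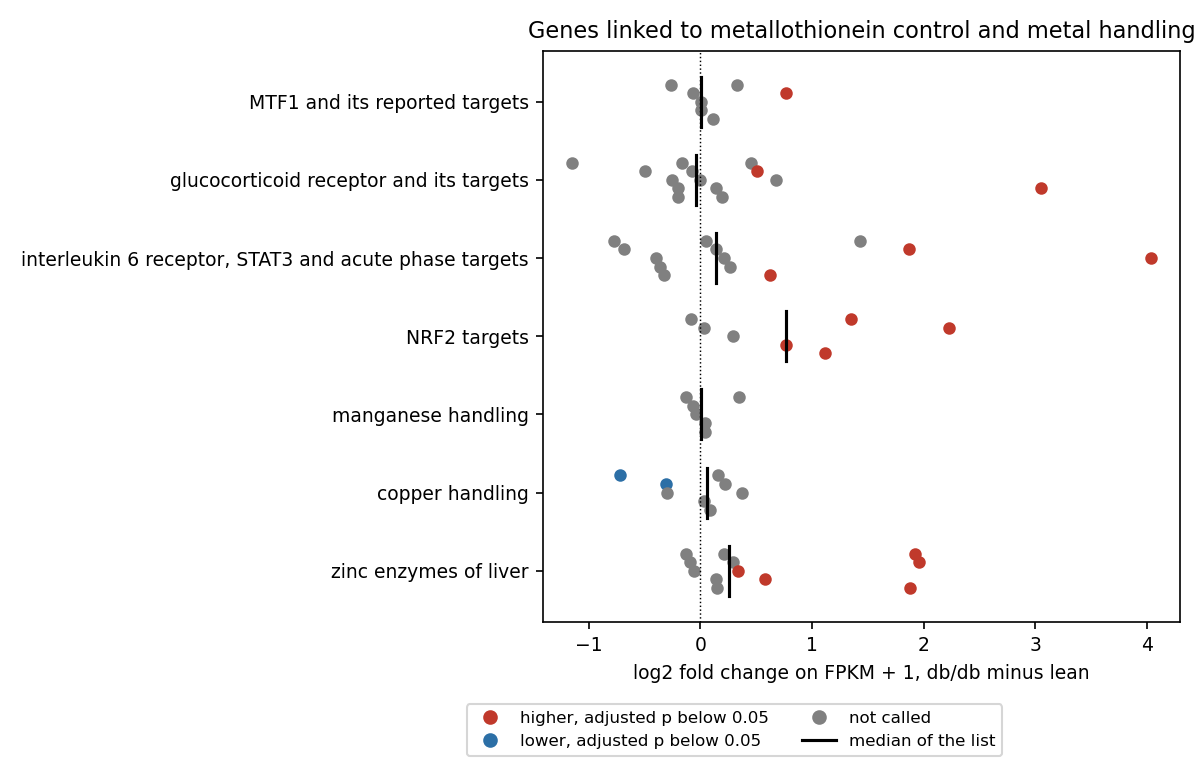
Log2 fold change on FPKM + 1 (db/db minus lean) of each tested gene in 7 lists, coloured by limma call, with the median of each list as a black line. The NRF2 targets have the highest median (0.77), while the medians of the MTF1, glucocorticoid and manganese lists are 0.01, -0.04 and 0.00. The MTF1 list leaves out Mt1, Mt2 and Slc30a1.

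The genes with the most similar pattern over the 8 samples were found by the root mean square difference of centred log2(FPKM + 1) values. For Mt2 the nearest gene was Mt1, at a distance of 0.78, followed by Cyp17a1, a steroid hydroxylase (0.90), and Cdkn1a (0.97). For Mt1 they were Thrsp, a lipogenic protein (0.56), Ppp1r3b, a glycogen-targeting subunit of a phosphatase (0.57), and Rcan1, a calcineurin regulator (0.58). Thrsp, chosen for this pattern and so not tested, had 2261 ± 482 (db/db) and 591 ± 201 FPKM (lean; SD, n = 4 each). For Slc30a10 the nearest were Ptges, Zfp14 and Tlr5, at distances of 0.23 to 0.24, and for Slc39a4 they were Rnaseh2a, Plxnb1 and Arhgdia, at 0.10 to 0.14. Short distances come more easily to genes of small change. The added 1 also shrinks the change of genes near 0. Ptges and Zfp14 had at most 14 and 13 estimated fragments in lean samples, and Cdkn1a had 4 to 36. By voom, Ptges and Zfp14 had log2 fold changes of 3.56 and 2.09, against 1.29 for Slc30a10. Cdkn1a had 4.90 by voom, against 3.39 for Mt2. The likeness of these genes therefore depends on the added 1.

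Depth and cell markers were compared across the same samples. Estimated fragments summed over the listed genes ranged from 12174816 to 16171656 per library. On the second principal component, with 10.7% of the variance, db/db 1 stood at 29.6 and the other db/db samples between -15.0 and -4.59. Without db/db 1 the same 4 of 7 genes were called. Of 4 hepatocyte markers tested, 0 rose and 2 fell, Ttr and Apoa1, though both remained abundant. Ttr stood at 4828 ± 941 and 7766 ± 530 FPKM and Apoa1 at 982 ± 274 and 15006 ± 2440 FPKM in db/db and lean. Cps1 and Hnf4a, each with a log2 fold change of -0.28, were not called. Over all genes tested, 15.5% rose and 10.9% fell. Apoa1 was called lower in all 18 alternatives too, while the lower call of Ttr was lost with quantile normalization (limma adjusted p = 0.259). Alb was listed at 0 in all 8 samples, so exact zeros need care. Of 5 Kupffer cell markers tested, 0 rose and 2 fell, Clec4f and Marco, with summed FPKM of 68.2 to 90.3 (db/db) and 89.5 to 145 (lean). The call of Clec4f was lost in 10 of 18 alternatives and that of Marco in 6, with an adjusted p of at most 0.0865 and 0.0753. Both were lost without db/db 1, db/db 3, db/db 4 or lean 1, Marco also without db/db 2, and Clec4f also without lean 2 or lean 3. Sinusoidal endothelial markers summed to 48.7 to 54.4 and 60.2 to 72.4 FPKM (0 of 6 rose, 1 fell, Clec4g). Stellate cell markers summed to 106 to 136 and 107 to 124 FPKM, led by Dcn (0 of 6 rose, 1 fell, Des, whose call was lost in 7 of 18 alternatives, among them leaving out any sample except db/db 1 and lean 4, with an adjusted p of at most 0.0921). Cholangiocyte markers, led by Spp1, summed to 35.7 to 53.0 and 29.7 to 51.6 FPKM (0 of 3 tested called). Neutrophil markers, led by S100a9, summed to 1.81 to 10.7 (db/db) and 5.71 to 69.3 FPKM (lean), with Ly6g and Camp at 0 in all samples (0 of 2 tested called). T and B cell markers, led by Cd79a, summed to at most 0.561 and 2.04 FPKM. Among 6 adipocyte markers, 3 were tested and 2 rose, Retn and Cidec, with sums of 8.33 to 39.4 and 1.42 to 4.83 FPKM. The defining adipocyte genes Adipoq and Plin1 had means of at most 0.215 FPKM, and Lep was at 0 in all samples. Pancreatic acinar markers summed to 1.81 to 2.83 and 15.1 to 21.3 FPKM, nearly all from Cela1, with Cpa1, Pnlip and Prss2 at 0. Red cell precursor markers, led by Hbb-bs, summed to 305 to 385 and 303 to 894 FPKM (0 of 5 tested called). The part of these markers in the differences of Mt1, Mt2, Slc30a10 and Slc39a4 was not tested.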

How the data were processed

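Ribosomal RNA-depleted, stranded total RNA of 4 db/db and 4 lean liver samples was sequenced. The submitters' processing notes name cutadapt 1.9.3, HISAT2 2.0.4, Cufflinks, Cuffdiff and the build mm10, with no settings. The authors deposited FPKM per gene and a second signal per gene, estimated fragments scaled by library. That signal was turned back into fragments from its step size (91.3 to 92.0% of values below 2000 steps whole within 0.05 step). Too few values were whole for a count test as the main test. Voom on these estimated fragments was run only as an alternative beside limma on FPKM, and its calls carry that limit.

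Rows of the same symbol were summed (22564 rows, 22481 symbols). Genes with FPKM of at least 0.5 in 4 of 8 samples were tested with limma 3.58.1 (R 4.3.3) on log2(FPKM + 1), calling genes at a Benjamini-Hochberg adjusted p below 0.05. Adding 1 understates the change of low genes. Samples were not paired, because the labels do not say that equal numbers pair them. Over all genes tested, deviations of samples with the same number had correlations of -0.22 to 0.11, which cannot exclude a pairing or a shared batch. The labels do not say that samples are separate animals, so the spread that p-values rest on is that of these samples and may be technical. The genes and lists were chosen with earlier results of these data known. Named from each list were up to 3 called genes per direction with the smallest adjusted p and the most abundant gene. Others (Mtf1, Slc39a5, Slc30a4, Gsta1, Tsc22d3, Fkbp5, Dusp1, Saa1, Saa3, Orm1, Stat3, Il6ra, Il6st, Fgb, Apcs, Socs3, Atp2c1, Car5a, Dpys, Cps1, Hnf4a) were named after their values were seen. For each called member of the 7, the 3 genes of nearest profile were named. Within 18 alternatives, pseudocount, filter, scaling, unit, weights, block and single samples were varied.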

Additional observations from a re-analysis of the deposited data

Results flagged for a closer look

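Among 110 groups of 4 samples checked, 7 held a sample far from the other 3 relative to the range of its group, and chance gives about 5%. Slc39a14 stood at 42.4 FPKM in lean 4 and at 29.4 to 31.4 in the other lean samples. Slc39a11 stood at 13.1 FPKM in db/db 1 while the rest of its group had 10.4 to 10.6. Slc39a1 stood at 32.04 FPKM in db/db 4 against 28.2 to 28.7. Lean 3 stood apart for Sepw1 at 152.7 FPKM against 88.3 to 99.1, for Plxnb1 at 5.03 against 2.89 to 3.02, and for the hepatocyte marker Apoa1 at 18621 against 13473 to 14334. The haemoglobin gene Hbb-bs stood at 495 FPKM in lean 1 against 135 to 183 in the other lean samples.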

How the results depend on the processing

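Mt1, Mt2, Slc30a1, Slc30a10, Slc39a4, Slc39a8 and Slc39a14 each kept direction and side of the threshold in all 18 alternatives. The log2 fold change ranged from 1.53 to 2.30 for Mt1 (limma adjusted p at most 0.0458), 2.64 to 3.80 for Mt2 (at most 0.0210), 0.85 to 1.29 for Slc30a10 (at most 0.0416) and -1.04 to -0.82 for Slc39a4 (at most 0.00591). With the replicate number as a block, the limma adjusted p was 0.00106 for Mt1, 0.00147 for Mt2, 0.0298 for Slc30a10 and 0.00204 for Slc39a4, 4 of the 7 were called, and 2514 genes were called against 2892 without it. Among called list and marker genes, the block ended the calls of Hsd11b1 (adjusted p = 0.0514), Dpys, Saa2, Ccs and Clec4f. Leaving out each sample gave 2182 to 2596 called genes, and voom gave 3279. Calls split into 1694 higher and 1198 lower, against 1463 and 1382 with median-ratio scaling and 1479 and 1457 with quantile normalization. Of the 7 genes, 3 to 5 had groups that did not overlap when single samples were left out, with 5 without db/db 4, where Slc30a10 and Slc30a1 joined. Fragment numbers limit Mt2 in lean 2, with 44, and most of Slc39a5.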
